A study of Mus musculus with 18 samples.

Results

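R-loops are stretches of DNA in which an RNA strand is paired to one DNA strand while the other is left unpaired. Rnaseh1 encodes RNase H1, which cuts the RNA of such hybrids and is made as a nuclear and a mitochondrial form. RNase H2, a complex of 3 subunits, also cuts the RNA of hybrids and removes single ribonucleotides from DNA. Helicases unwind hybrids, topoisomerases relieve the negative supercoiling that favours them, and mRNA packaging and export factors keep a nascent transcript away from its template. Proteins of the Fanconi anaemia and BRCA pathways act where hybrids meet replication forks.

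The genes described here are Rnaseh1 and 31 other factors known to resolve, prevent or bind R-loops, taken from a named list and matched by symbol to 32 of the 55401 gene IDs in the deposited tables. The question was whether any of the 31 changed in cells with raised Rnaseh1, and on which day. All cells were of RHKI, a single line derived from the mouse embryonic stem cell line E14Tg2a, and all carried the genotype HA-Rnaseh1 knock-in, controls included. Cells were grown in 2i/LIF, a medium that holds stem cells in the naive state, and then differentiated into gastruloids, aggregates that form early embryonic tissues in culture. The Dox groups received doxycycline at 500 ng/ml for 48 hours ahead of differentiation, and no label says whether it was kept on afterwards. Poly(A) RNA was sequenced in 3 libraries from each of 6 groups, namely day 0 (0 h), day 3 (72 h) and day 5 (120 h), each with Dox and as control. No cells without the knock-in were among the samples, so effects of doxycycline itself and of raised Rnaseh1 cannot be told apart.

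Libraries held between 25748897 and 38128366 counts over all genes, and all 32 factors passed the filter on low counts, with at least 168 counts in every library. The samples were labelled as embryonic stem cells. The 8 naive pluripotency markers summed to 2820 to 3080 TPM (transcript abundance scaled for length and for library total) in Dox and 2860 to 3050 TPM in control at day 0, but to 9.83 to 15 TPM in Dox and 7.79 to 11.3 TPM in control at day 5, when 6 neural progenitor markers summed to 618 to 657 TPM in Dox and 653 to 669 TPM in control. Markers of fibroblast feeders, 6 genes, summed to 9.9 TPM or less in every library. Replicates differed more at day 0 than later, with a chi-square per gene between a pair of replicates whose median was 2.692 to 5.865 at day 0, 0.76 to 2.032 at day 3, and 0.841 to 2.584 at day 5. Day 0 Dox replicate 2 had 4.76% of its counts in 1 ribosomal RNA gene, against 0.144 to 0.483% in the other libraries, and without it the log2 fold change of Rnaseh1 at day 0 was 2.50. The model pools the spread between replicates over the days, so numbers of calls do not rank the days. In bulk RNA, fewer cells of a type and less RNA per cell cannot be told apart.

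Rnaseh1 was higher with Dox on all 3 days, and most so at day 0. The gene (ENSMUSG00000020630) lies on the plus strand of chr12:28649602-28659589 (GRCm38). Its first coding bases are shown because they hold both start codons, from which the mitochondrial and the nuclear form of the enzyme are known to be made. The stretch is 120 bases of exon 1, chr12:28649689-28649808, plus strand, with the ATG of codon 1 and the in-frame ATG of codon 27 in capitals.
Rnaseh1 coding start: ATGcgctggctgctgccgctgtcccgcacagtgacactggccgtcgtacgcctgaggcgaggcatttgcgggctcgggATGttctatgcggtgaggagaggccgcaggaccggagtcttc
The deposited values are per gene, so they show neither which start codon is used nor how much of the RNA came from the tagged copy.

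At day 0, Rnaseh1 stood at 172, 137 and 149 CPM (counts scaled to a common library total) in the Dox libraries, against 25.8, 30.3 and 28.7 CPM in the control libraries. At day 3 it stood at 67.9, 70.2 and 66.1 CPM in Dox, against 22.2, 24.0 and 24.1 CPM in control. At day 5 it stood at 53.7, 57.4 and 60.4 CPM in Dox, against 19.4, 20.1 and 19.6 CPM in control. Every Dox library was thus above every control library of its day, and the spread between Dox libraries was widest at day 0. The fold differences, with 95% intervals from edgeR's quasi-likelihood test, were 5.39 (4.80 to 6.04) at day 0, 2.90 (2.59 to 3.24) at day 3 and 2.90 (2.59 to 3.25) at day 5. The adjusted p in edgeR was 4.1e-13, 9.9e-10 and 1.3e-09 for the 3 days in order.

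The Dox effect on Rnaseh1 was smaller after differentiation began. On the log2 scale it was lower by a difference of -0.90 at day 3 against day 0 (SE 0.108, edgeR adjusted p 0.00087) and of -0.89 at day 5 against day 0 (SE 0.109, edgeR adjusted p 0.00019). Between day 5 and day 3 the difference of effects was 0.002 on the log2 scale, with an edgeR adjusted p of 1. In control cells Rnaseh1 itself fell by 0.27 on the log2 scale at day 3 relative to day 0 (edgeR adjusted p 0.0049) and by 0.25 at day 5 relative to day 3 (edgeR adjusted p 0.0096). The first of these control steps was -0.12 with an edgeR adjusted p of 0.2 when libraries were scaled by their totals alone.

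**Figure D1:**
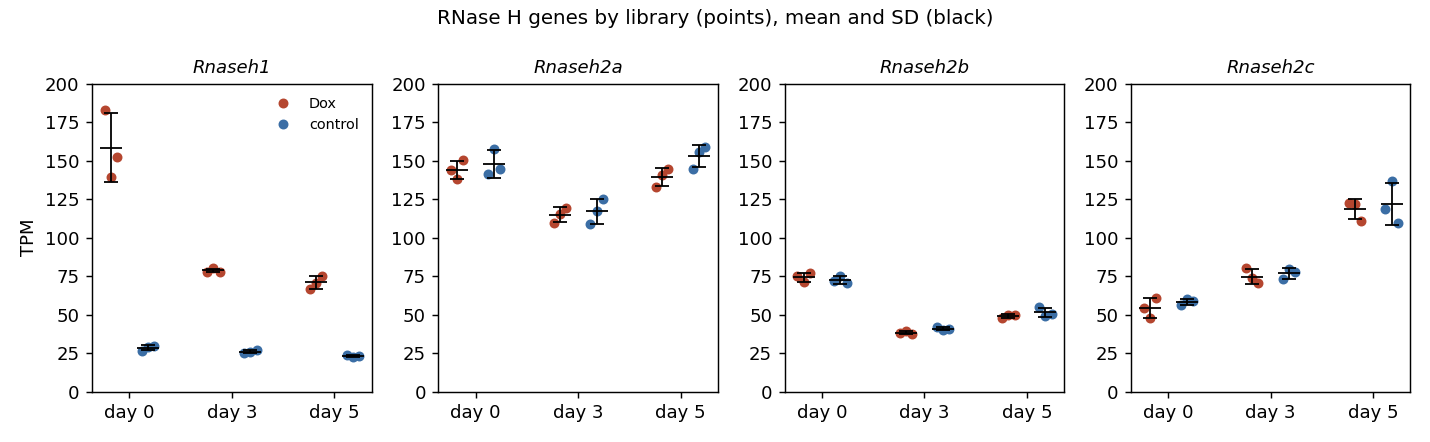
Deposited TPM of Rnaseh1 and the 3 RNase H2 subunit genes in each library (points), with mean and SD of 3 libraries in black, Dox left of control at each day. Rnaseh1 in Dox lies above every control library on each day, while Dox and control of the RNase H2 genes overlap at day 0 and follow the same course over the days.

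Rnaseh1 was among the scarcer of the 32 factors in control and higher in their order in Dox, most so at day 0. Per transcript length, Rnaseh1 averaged 158 ± 22 TPM in Dox and 28.5 ± 1.6 TPM in control at day 0 (SD, n = 3 each), which placed it at rank 7 in Dox and rank 28 in control, counted from the most abundant of the 32. At day 3 it averaged 78.7 ± 1.2 TPM in Dox and 25.8 ± 0.97 TPM in control, at ranks 13 and 26 in that order. At day 5 it averaged 70.9 ± 4.0 TPM in Dox and 23.2 ± 0.67 TPM in control, at ranks 15 and 28 in that order. For scale, Ddx5, an RNA helicase, averaged 563 ± 33 TPM in day 0 control cells, Ddx39b, a helicase of mRNA export, 432 ± 23 TPM, and Wrn, a RecQ DNA helicase, 2.48 ± 0.61 TPM.

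The balance of Rnaseh1 to the genes of RNase H2 differed accordingly. Rnaseh2a, which encodes the catalytic subunit, had a TPM close to that of Rnaseh1 in day 0 Dox libraries, with Rnaseh1 to Rnaseh2a ratios of 1.27, 1.01 and 1.01, against 0.189, 0.184 and 0.206 in day 0 controls. At day 3 the ratios were 0.712, 0.694 and 0.652 in Dox, against 0.228, 0.221 and 0.214 in control. At day 5 they were 0.505, 0.502 and 0.519 in Dox, against 0.166, 0.146 and 0.144 in control. Set against the scarcest RNase H2 subunit gene of the library, Rnaseh1 was in excess in every Dox library, by 1.4 to 3.35 times, and below it in every control library, at 0.437 to 0.658 times. That scarcest gene was Rnaseh2c at day 0 and Rnaseh2b at days 3 and 5. These are ratios of RNA, with no measure of protein.

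The 3 RNase H2 genes gave no call with Dox on any day. Rnaseh2a stood at 69.2, 69.7 and 76.7 CPM in day 0 Dox, against 71.7, 81.2 and 66.3 CPM in day 0 control, and its log2 fold changes were -0.02 at day 0, -0.02 at day 3 and -0.05 at day 5. Rnaseh2b, an accessory subunit, stood at 40.1, 42.7 and 42.4 CPM in day 5 Dox, against 46.3, 45.7 and 43.6 CPM in day 5 control. Those groups did not overlap, but the log2 fold change of -0.12 had an edgeR adjusted p of 0.45. Rnaseh2c, the other accessory subunit, stood at 23.9, 25.6 and 29.2 CPM in day 0 Dox, against 27.2, 31.8 and 28.6 CPM in day 0 control, a log2 fold change of -0.15 with an edgeR adjusted p of 0.5. The reads of Rnaseh2a and Rnaseh2c may not be wholly their own, since Prdx2 (4502 to 14420 counts per library) overlaps Rnaseh2a and Kat5 (1095 to 2061) overlaps Rnaseh2c on the opposite strand, and the strand setting of the counting is not given in the sources used here. Usp14 overlaps Thoc1, and Zfp276 and Gm20388 overlap Fanca, in the same way.

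The length that RSEM lists for Rnaseh1, a mean of its transcripts' lengths weighted by their estimated abundance, was shorter in Dox on each day. At day 0 it was 1370, 1360 and 1366 nt in Dox, against 1406, 1411 and 1419 nt in control. At day 3 it was 1375, 1372 and 1338 nt in Dox, against 1443, 1458 and 1410 nt in control. At day 5 it was 1415, 1383 and 1391 nt in Dox, against 1428, 1442 and 1455 nt in control. Dox and control did not overlap on any day, and the differences were -3.30% (95% interval -5.24 to -1.31) at day 0, -5.25% (-7.15 to -3.30) at day 3 and -3.14% (-5.09 to -1.15) at day 5.

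None of these differences passed limma's test over 9237 genes, where Rnaseh1 had an adjusted p of 0.43 (day 0), 0.13 (day 3) and 1 (day 5). That test called 0 genes on any day, with 523, 380 and 345 genes under an unadjusted p of 0.05 for the 3 days in order. Shorter lengths without overlap were found for 3.83% of all genes at day 0, 3.90% at day 3 and 4.21% at day 5. Across all 3 days they were found for 1 of 9237 genes, 0.0108%, which was Rnaseh1. This count was made after its values had been seen, so it describes Rnaseh1 and does not test it. Leaving out day 3 control replicate 3 took the day 3 adjusted p in limma to 0.033. The annotation (GENCODE M21) lists 4 Rnaseh1 transcripts, of 1455 nt for the protein-coding one, 1970 and 382 nt for forms with a retained intron and 1368 nt for a form subject to nonsense-mediated decay. Of the 31 other factors 0 were called for length on any day. An unadjusted p under 0.05 was found for Ddx5 and Fancd2 at day 3 and for Rnaseh2a and Thoc2 at day 5, with differences of 5.06%, 5.18%, 6.08% and -7.60% in that order.

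**Figure D2:**
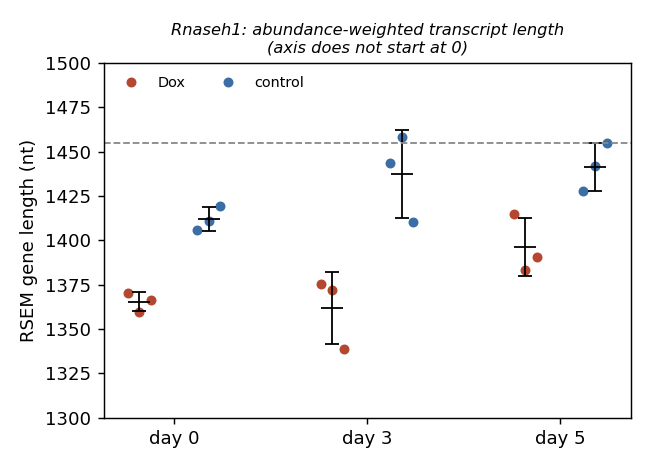
Abundance-weighted transcript length of Rnaseh1 as RSEM lists it, in nt, for each library (points), with mean and SD of 3 libraries in black and Dox left of control at each day; the axis does not start at 0. Dox libraries lie below the control libraries of their day throughout, and the dashed line marks the 1455 nt of the protein-coding transcript.

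None of the 31 other factors was called higher or lower with Dox on any of the 3 days in the main edgeR fit, which did not use the replicate number. At day 0 the calls among all 17795 genes tested were 0.292% higher and 0.747% lower, 1.04% in either direction. At day 3 the share was 0.0169% higher (3 genes, Rnaseh1 among them) with 0 genes lower, and at day 5 it was 2.39% higher and 2.34% lower, 4.74% in either direction. A count of 0 of 31 is therefore near what these background shares give. When the replicate number, which the labels give as the batch, was added as a block, 2 factors were called lower at day 0 (Ddx17 and Rtel1), 0 at day 3 and 1 lower at day 5 (Ddx21), with 0 higher on any day. Of all 17795 genes that fit called 212 lower and 101 higher at day 0, 0 lower and 4 higher at day 3, and 528 lower and 537 higher at day 5. At an unadjusted p under 0.05 there were 5 of 31 factors at day 0 (16.1%, against 12.3% of all genes), 0 at day 3 (2.43% of all genes) and 1 at day 5 (3.23%, against 16.4% of all genes).

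Each interval gives a range for the change of 1 factor on 1 day, and they were not widened to hold jointly over the 31 factors. The 95% interval of every one of the 31 factors lay within a 1.5-fold change in either direction on each day. These intervals use a spread pooled over the days, and replicates differed more at day 0. With day 0 fitted alone, 28 of 31 lay within it, and the bounds of Brca2, Wrn and Tdrd3 passed it, out to 1.57-fold for Brca2 and 0.614-fold for Wrn. With day 3 or day 5 fitted alone, 31 of 31 did. When the replicate block was added to the fit of all days, 31 of 31 lay within it on each day. Without Dox replicate 3 of day 0 the upper bound of Brca2 was 1.54-fold. The log2 fold changes of the 31 had a median of 0.01 (day 0), -0.02 (day 3) and -0.01 (day 5), beside 0.00 for all genes on each day. With the pooled spread the outermost bounds at day 0 were 1.44-fold for Brca2 and 0.679-fold for Wrn. At day 3 they were 1.19-fold for Pif1 and 0.781-fold for Thoc2, and at day 5 they were 1.31-fold for Wrn and 0.794-fold for Ddx21. At the same time Rnaseh1 itself was 2.90 to 5.39 times higher.

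**Figure D3:**
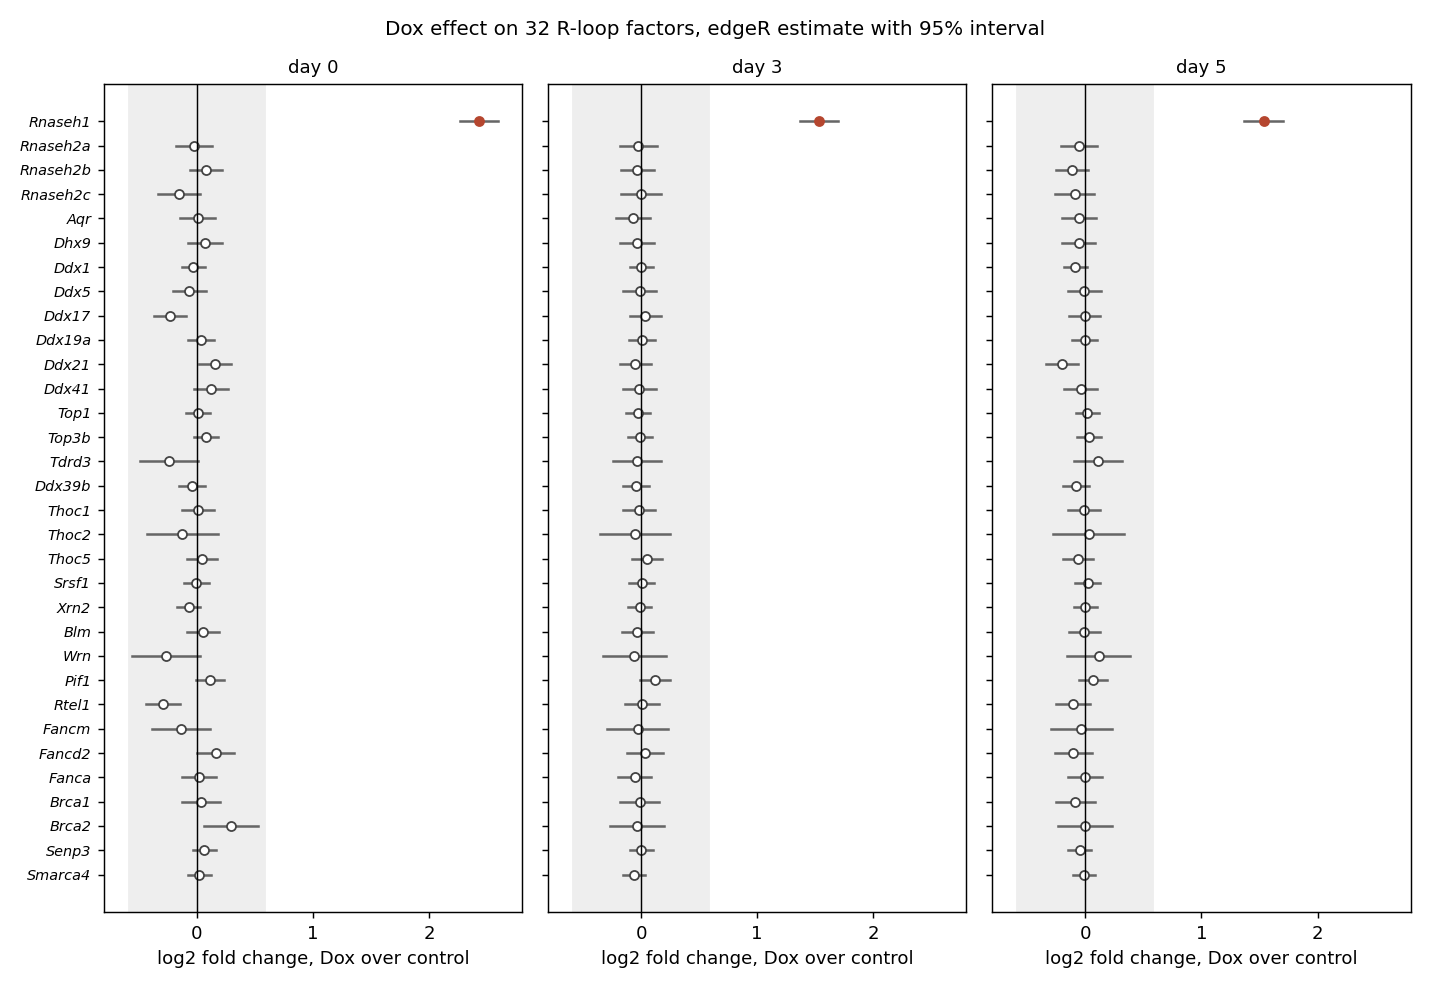
Log2 fold change of Dox over control for the 32 factors at day 0, day 3 and day 5, as edgeR's estimate with its 95% interval; filled points passed an adjusted p of 0.05 and the grey band spans a 1.5-fold change either way. In this fit, which did not use the replicate number, only Rnaseh1 is filled, at 2.43, 1.53 and 1.54. The intervals of the other 31 stay inside the band on all 3 days.

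RNA helicases unwind hybrids or act on the RNA that would form them. Of the 8 counted here (Aqr, Dhx9, Ddx1, Ddx5, Ddx17, Ddx19a, Ddx21 and Ddx41) 0 were called, with log2 fold changes of -0.23 to 0.16 at day 0, -0.07 to 0.04 at day 3 and -0.20 to 0.00 at day 5. Ddx17, a cofactor of transcription and RNA processing related to Ddx5, was singled out with its values in view. It stood at 594, 551 and 519 CPM in day 0 Dox, against 701, 602 and 651 CPM in day 0 control. The 2 groups did not overlap, and the fold was 0.851 with an edgeR adjusted p of 0.098, or 0.014 with the replicate block. Under alternative settings the call was made in 5 of 28, with an adjusted p of 0.011 to 0.82. Aqr, a helicase of the spliceosome, had the lowest log2 fold change of the 31 at day 3, -0.07.

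Ddx21, a mainly nucleolar helicase that unwinds R-loops, had opposite signs at day 0 and day 5. It stood at 331, 309 and 280 CPM in day 0 Dox, against 296, 272 and 257 CPM in day 0 control, a log2 fold change of 0.16 (edgeR adjusted p 0.32) with overlapping groups. At day 5 it stood at 263, 245 and 240 CPM in Dox, against 304, 269 and 286 CPM in control, a log2 fold change of -0.20 (edgeR adjusted p 0.092, or 0.042 with the replicate block) with no overlap. The difference of the Dox effect at day 5 against day 0 was -0.35 on the log2 scale (SE 0.091, 95% interval -0.55 to -0.16), with an edgeR adjusted p of 0.038. Ddx21 was the 1 factor of 31 called lower in that comparison, with 0 called higher, against 1.52% and 1.76% of all genes in that order. That call was lost (adjusted p 0.052 to 0.12 in edgeR) in 14 of 18 fits that each left out 1 library and with scaling by library totals alone. The losses included fits without a day 3 library, which is not part of that comparison. Leaving out a library also changed the filter, with 18247 genes tested without day 3 control replicate 1, against 17795. The losses therefore cannot be laid to single libraries alone.

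The topoisomerase group, Top1, Top3b and Tdrd3, had 0 calls. Top1 relaxes supercoils around the polymerase, and Tdrd3 recruits Top3b, which can also act on RNA. Tdrd3 was the scarcest of the 3, at 9.70, 9.51 and 6.13 CPM in day 0 Dox, against 9.67, 10.3 and 9.81 CPM in day 0 control. Dox replicate 3 lay below the other 5 libraries, and the log2 fold change of -0.24 had an edgeR adjusted p of 0.43. At day 5 Tdrd3 had a log2 fold change of 0.11 with overlapping groups.

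The mRNA packaging and export factors (Ddx39b, the THO complex subunits Thoc1, Thoc2 and Thoc5, and the splicing factor Srsf1) had 0 calls among 5, with log2 fold changes of -0.13 to 0.05 at day 0, -0.05 to 0.05 at day 3 and -0.08 to 0.03 at day 5. Xrn2, the exonuclease that ends transcription by degrading the downstream RNA, had log2 fold changes of -0.07, -0.01 and 0.00 for the 3 days in order. Thoc5 had the second highest log2 fold change of the 31 at day 3, 0.05.

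The 4 DNA helicases (Blm, Wrn, Pif1 and Rtel1) had 0 calls, but Rtel1, a helicase known for telomere maintenance, had the lowest p of the 31 at day 0. It stood at 100.4, 102 and 92.1 CPM in Dox, against 127, 132 and 103 CPM in control. The groups did not overlap, by a small margin at control replicate 3, and the fold was 0.816 (95% interval 0.737 to 0.903) with an edgeR adjusted p of 0.051, or 0.028 with the replicate block. At day 3 it stood at 96.0, 94.5 and 96.2 CPM in Dox, against 93.0, 94.5 and 98.2 CPM in control, and at day 5 the log2 fold change was -0.11 (edgeR adjusted p 0.52). Under alternative settings the day 0 call was made in 6 of 28, with an adjusted p of 0.0013 to 0.81.

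Wrn had a log2 fold change of -0.27 at day 0 (edgeR adjusted p 0.47), from 11.2, 8.42 and 8.61 CPM in Dox, against 12.9, 8.54 and 12.5 CPM in control. At day 5 its log2 fold change was 0.12, the highest of the 31 on that day. Pif1, a helicase of G-quadruplexes and replication, had the highest at day 3, 0.12, from 23.0, 26.4 and 22.7 CPM in Dox, against 22.4, 22.2 and 21.6 CPM in control. The Pif1 groups did not overlap at day 3, and the edgeR adjusted p was 1.

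The Fanconi and BRCA genes (Fancm, Fancd2, Fanca, Brca1 and Brca2) had 0 calls. Brca2, which acts in homologous repair, had the highest log2 fold change of the 31 at day 0, 0.29, with an edgeR adjusted p of 0.26. It stood at 87.4, 105 and 65.1 CPM in Dox, against 71.4, 69.8 and 68.5 CPM in control. Dox replicate 3 lay below all the controls and replicates 1 and 2 above them, and without replicate 3 its log2 fold change was 0.46 (edgeR adjusted p 0.0053). Fancd2, which is monoubiquitinated at stalled forks, had a log2 fold change of 0.16 at day 0 (edgeR adjusted p 0.39). The SUMO protease gene Senp3 and Smarca4, the ATPase of the BAF chromatin remodeller, stayed within -0.06 and 0.06 on the log2 scale on all 3 days.

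**Figure D4:**
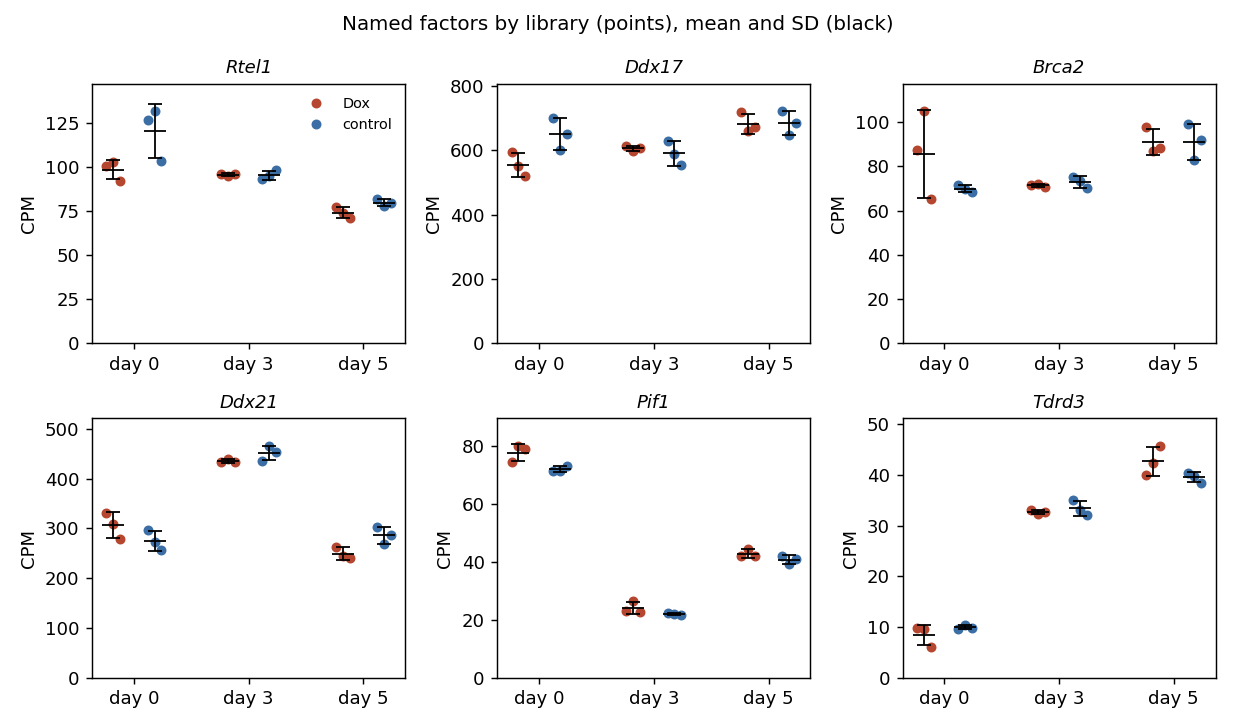
CPM per library (points) of Rtel1, Ddx17, Brca2, Ddx21, Pif1 and Tdrd3, with mean and SD of 3 libraries in black, Dox left of control at each day, axes starting at 0. At day 0 the Dox libraries of Brca2 spread from 65.1 to 105 CPM, and the steps between days in Pif1 and Tdrd3 are larger than any step between Dox and control.

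Some of the 31 factors had groups of Dox and control libraries without overlap, in shares both above and below those of all genes. At day 0 there were 2 higher in Dox (Top3b and Pif1, 6.45%, against 4.59% of all genes) and 3 lower (Rtel1, Ddx17 and Xrn2, 9.68%, against 5.64%). At day 3 there was 1 higher (Pif1, 3.23%, against 5.66%) and 3 lower (Aqr, Fanca and Blm, 9.68%, against 5.46%). At day 5 there were 0 higher (against 13.8%) and 5 lower (Ddx21, Rnaseh2b, Rtel1, Ddx1 and Ddx39b, 16.1%, against 12.3%). Besides that of Ddx21, no difference of a Dox effect between days was called among the 31, where 0.0562% of all genes were called for day 3 against day 0 and 0.82% for day 5 against day 3.

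A further list of 29 R-loop genes, among them other THO subunits, Rpa genes, repair nucleases and Fanconi partners, was also read. With Dox it had 0 calls at day 0 and at day 3. Over these 29 genes the log2 fold change had a median of 0.02 (day 0), 0.00 (day 3) and -0.07 (day 5). Their summed level at day 5 was 1960 to 2010 TPM in Dox and 2060 to 2090 TPM in control, without overlap, and at day 0 it was 1700 to 1850 TPM in Dox and 1770 to 1810 TPM in control. At day 3 it was 1770 to 1800 TPM in Dox and 1810 to 1880 TPM in control, also without overlap but by a small margin. Such sums weigh the most abundant genes most, and how often sums of other gene sets lack overlap was not computed.

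The 14 genes of S phase and division summed to 3610 to 3640 TPM in Dox and 3750 to 3940 TPM in control at day 5, and to 3070 to 3510 TPM in Dox and 3100 to 3330 TPM in control at day 0. None of those 14 was at 0 in any library, none was called with Dox on any day, and their median log2 fold change was -0.11 at day 5 and 0.04 at day 0. In the difference of Dox effects at day 5 against day 0, where Ddx21 was called, 2 of the 14 were called lower and 0 higher, with a median of -0.14 on the log2 scale. Cell type markers also differed at day 5, where 2.34% of all genes were called lower and 2.39% higher. Of 6 neural progenitor markers 3 were called lower with Dox (Pax6, Nkx6-1 and Olig2) and 0 higher. Pax6 was at 165 ± 2.5 TPM in Dox and 216 ± 4.2 TPM in control (SD, n = 3 each). Olig2 was scarce, at 0.117 and 0.847 TPM in that order. Of those not called, Sox1 (91.1 against 75.9 TPM) and Hes5 (233 against 188 TPM) had higher means in Dox, and Irx3 (149 against 176 TPM) a lower one. Of 6 somite markers 3 were lower and 1 higher, and their sum was 74.7 to 94.2 TPM in Dox and 101 to 112 TPM in control. The part of these genes in the Ddx21 result was not tested.

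Over differentiation the factors changed by larger amounts, with log2 fold changes among the 31 of -1.74 to 1.75 at day 3 against day 0 in control, beside -0.29 to 0.29 for Dox at day 0. Among control libraries 11 of the 31 rose and 10 fell at day 3 against day 0, where 37.2% of all genes rose and 36.3% fell. At day 5 against day 3, 14 rose and 9 fell, where 31.7% of all genes rose and 33.1% fell. Changes of R-loop factors were thus about as common as changes of any gene. Only Dhx9, Thoc2 and Blm gave no call in either step. Scaling by library totals alone gave 14 rises and 9 falls for the first step and moved the median of all genes by 0.15 on the log2 scale.

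The genes of the catalytic subunit and of 1 accessory subunit of RNase H2 fell in the first step, while that of the other accessory subunit rose. Rnaseh2b stood at 73.4, 85.5 and 69.0 CPM in day 0 control, 38.5, 36.7 and 38.7 CPM at day 3 and 46.3, 45.7 and 43.6 CPM at day 5. Rnaseh2a stood at 71.7, 81.2 and 66.3 CPM at day 0, 48.3, 52.3 and 56.8 CPM at day 3 and 59.1, 66.3 and 65.2 CPM at day 5. Both fell at day 3, to 0.50 and 0.718 times the day 0 level in that order (edgeR adjusted p 1.1e-10 and 1.3e-05), and rose again at day 5 by 0.25 and 0.28 on the log2 scale. Rnaseh2c stood at 27.2, 31.8 and 28.6 CPM at day 0, 34.0, 33.6 and 36.2 CPM at day 3 and 48.6, 58.1 and 49.6 CPM at day 5. It rose in both steps, by 1.19-fold (edgeR adjusted p 0.012) and then 1.5-fold (edgeR adjusted p 3.5e-06), although the first rise lost its call without day 0 control replicate 1 (adjusted p 0.062).

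The 4 deepest falls at day 3 were those of Fancm, Pif1, Brca1 and Rnaseh2b. Fancm, a translocase that remodels stalled forks, stood at 169, 137 and 152 CPM at day 0, 46.5, 47.4 and 43.7 CPM at day 3 and 54.4, 44.4 and 50.5 CPM at day 5 in control. Pif1 stood at 71.5, 71.5 and 73.2 CPM at day 0, 22.4, 22.2 and 21.6 CPM at day 3 and 42.1, 39.3 and 41.2 CPM at day 5. Brca1, a ubiquitin ligase subunit of homologous repair, stood at 166, 146 and 145 CPM at day 0, 78.6, 71.9 and 71.9 CPM at day 3 and 119, 109 and 113 CPM at day 5. The day 3 levels were 0.30, 0.306 and 0.487 times those of day 0 for these 3 genes in order (edgeR adjusted p 3.4e-10, 7.1e-15 and 9.6e-10). Pif1 and Brca1 rose again at day 5, by 1.85-fold and 1.53-fold, while Fancm gave no call in the second step. The S phase and division genes moved in the same order in control, with 9 of 14 falling and 0 rising at day 3 and 11 rising and 0 falling at day 5, and their part in these changes was not tested.

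Among the risers at day 3, Tdrd3 stood at 9.67, 10.3 and 9.81 CPM at day 0, 35.0, 33.1 and 32.1 CPM at day 3 and 40.4, 39.9 and 38.5 CPM at day 5 in control. The first step was a 3.35-fold rise (edgeR adjusted p 3.4e-11), and a further rise of 0.24 on the log2 scale came at day 5. Its partner Top3b went the other way, at 138, 130 and 140 CPM, then 86.1, 81.9 and 89.3 CPM, then 59.6, 65.4 and 66.4 CPM for the same 3 days in control. Top3b fell in both steps, by 0.66 and then 0.43 on the log2 scale. Top1 rose in both, at 150, 141 and 153 CPM at day 0, 215, 208 and 205 CPM at day 3 and 279, 258 and 269 CPM at day 5. Top3b was thus the only 1 of these 3 genes to fall.

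Of the RNA helicases, Aqr and Ddx21 rose and then fell back. Aqr stood at 154, 130 and 138 CPM at day 0, 235, 228 and 232 CPM at day 3 and 163, 153 and 162 CPM at day 5 in control. Ddx21 stood at 296, 272 and 257 CPM at day 0, 436, 466 and 453 CPM at day 3 and 304, 269 and 286 CPM at day 5 in control. Their rises at day 3 were 1.65-fold and 1.64-fold in that order (edgeR adjusted p 2.3e-08 and 8.2e-09), and their day 5 levels were 0.69 and 0.634 times those of day 3. Ddx1 and Fancd2 had the same order of a rise and a fall. Ddx19a, a helicase of the nuclear pore, gave no call at day 3 and rose 1.47-fold at day 5 (edgeR adjusted p 3e-08). Its close copy Ddx19b may share reads with it.

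Besides Rnaseh1, the 3 factors that fell in both steps were Senp3, Rtel1 and Top3b. Senp3 stood at 327, 306 and 316 CPM at day 0, 166, 176 and 172 CPM at day 3 and 127, 133 and 132 CPM at day 5 in control. In total 5 factors rose in both steps (Rnaseh2c, Top1, Tdrd3, Srsf1 and Smarca4), 4 fell and then rose (Rnaseh2a, Rnaseh2b, Brca1 and Pif1), and 4 rose and then fell. The rest were called in 1 step or in neither.

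**Figure D5:**
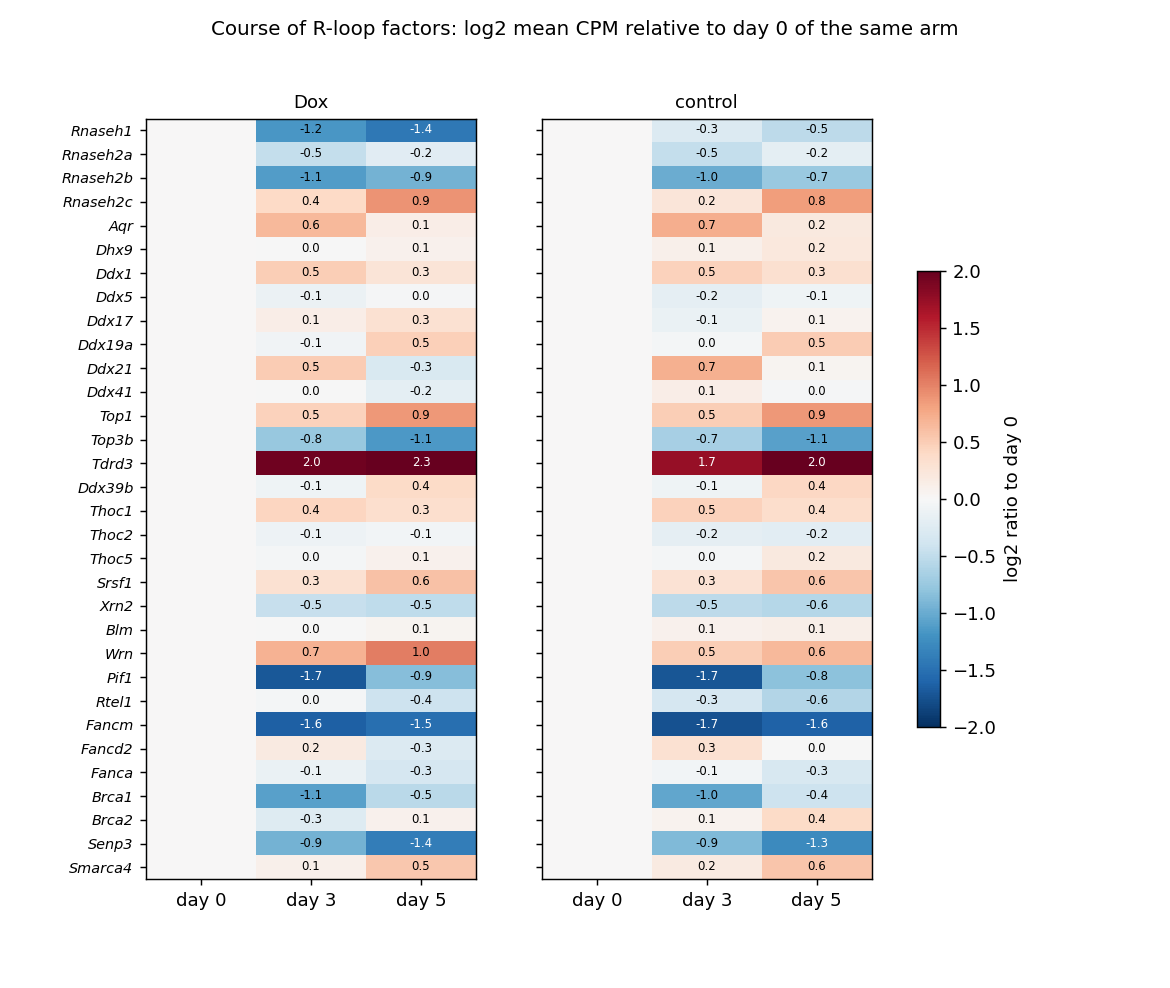
Log2 ratio of each factor's mean CPM to its day 0 mean in the same arm, Dox on the left and control on the right, at day 0, day 3 and day 5. Both arms show higher levels of Tdrd3, Top1 and Rnaseh2c and lower levels of Fancm, Pif1, Top3b and Senp3 after day 0, and the ratio of Rnaseh1 is lower in Dox, where its day 0 level is raised.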

How the data were processed

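Poly(A) RNA libraries made with a stranded mRNA kit, per the labels' protocols, were grouped by day and treatment from their titles. Per the submitters' processing notes the tools named are Trimmomatic, STAR (2.7.10a), RSEM (version 1.3.3) and also DESeq2 1.38.2, with build GRCm38; roles, order, annotation release and strand setting are not given in the sources used here. Each deposited table, 1 per library, lists RSEM's expected counts per gene, unscaled. Of these 6.54 to 7.49% were not whole, and they were rounded before fitting. They also hold TPM, scaled to the library total by the authors, and a gene length, listed by RSEM as a mean over transcripts weighted by abundance. Symbols came from GENCODE M21 for 55141 of 55401 IDs.

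Counts were fitted in edgeR 4.0.16 (R 4.3.3) by quasi-likelihood over all 18 libraries, with a mean per group, TMM scaling (factors 0.894 to 1.063) and filterByExpr (minimum count 10, minimum total 15), leaving 17795 genes and 12 residual degrees of freedom. Standard errors are the log2 fold change over the root of F, with 95% intervals from the fit's degrees of freedom. A call is an adjusted p (Benjamini-Hochberg, all genes tested) under 0.05. Log2 lengths of 9237 genes with at least 1 TPM in every library were fitted in limma 3.58.1. The scripts were tested on simulated data. The simulated counts had the same spread setting for every gene and day, so that test does not cover the wider spread at day 0.

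The members and lists were chosen with earlier results of these data known. Genes named were Rnaseh1, the RNase H2 genes, members called in a Dox contrast or in a difference between days, the 3 highest and 3 lowest per Dox contrast, the 4 largest rises and falls per control step, and genes of the further list called with Dox. Some results that these rules select, from the further list at day 5, are not reported here. No label says that replicates are separate cultures, so the p-values speak only of the spread of these libraries, which may be technical. The labels' batch equals the replicate number, which therefore pairs the samples. With group means removed, the correlation over genes of Dox and control libraries with the same number was 0.206 to 0.331 at day 0, where pairs of unlike number gave -0.252 to 0.055. It was 0.01 to 0.036 at day 3, where pairs of unlike number gave -0.043 to 0.02. At day 5 it was 0.022 to 0.051, where pairs of unlike number gave -0.057 to 0.02. The block was an alternative, as were DESeq2 1.42.0, limma-voom, other scalings and filters, each day alone, TPM with a pseudocount of 1 or 0.1 for Rnaseh1, and leaving out each library.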

Additional observations from a re-analysis of the deposited data

Results flagged for a closer look

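The Dox effect on Rnaseh1 differed between days by the test of that difference, at -0.90 on the log2 scale for day 3 against day 0 and -0.89 for day 5 against day 0 (edgeR adjusted p 0.00087 and 0.00019 in that order). All 3 Dox libraries were above all 3 controls on each day. For Ddx21 the Dox effect at day 5 against day 0 differed by -0.35 (edgeR adjusted p 0.038), and the call was lost in 14 of 18 fits without 1 library. Some of these left out a day 3 library, which is not part of that difference. The groups have 3 libraries each, too few for the check for single libraries far from the rest.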

How the results depend on the processing

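Rnaseh1 kept its calls on the 3 days and in both differences against day 0 under every alternative run, with log2 fold changes of 2.34 to 2.50, 1.49 to 1.61 and 1.5 to 1.6 for the 3 days in order. At day 3 no alternative called any of the other 31 factors, and none called one higher at day 5. At day 0 the lower calls were 2 with the replicate block, with DESeq2 and without a filter, 1 with library totals alone and 1 with at least 1 CPM in 3 libraries, and 1 factor (Brca2) was higher without a filter. At day 5 there was 1 lower call (Ddx21) with the replicate block, without a filter, and with the day alone with or without the replicate block. The Ddx21 difference of day 5 against day 0 became 0 calls with library totals alone. Leaving out a library also changed the filter and so the genes tested, for example 18247 without day 3 control replicate 1, against 17795 in the main fit. Leaving out each library gave 0 to 1 calls in either direction at day 0, 0 to 1 lower at day 5, 0 to 1 higher for day 3 against day 0, and 0 to 1 higher and 0 to 2 lower for day 5 against day 0. For Rnaseh1 length at day 3 it gave log2 ratios of -0.0915 to -0.0653. Single libraries changed calls at day 0: control replicate 3, without which Rtel1 had an edgeR adjusted p of 0.0013, Dox replicate 3, without which Brca2 had 0.0053, and control replicate 2 or Dox replicate 1, without which Ddx17 was called. Beside the calls named, the replicate block added a fall of Ddx17 in the first control step (11 falls, against 10) and changed no other count of calls of the 31. Over all genes the block gave 101 higher and 212 lower at day 0, against 52 and 133, and for day 3 against day 0 it gave 26 and 9, against 7 and 3. Over all alternatives the all-gene counts at day 0 ran from 2 to 227 higher and 1 to 326 lower, at day 3 from 2 to 42 higher and 0 to 56 lower and at day 5 from 206 to 1282 higher and 198 to 1376 lower. Intervals of the 31 were recomputed under these settings after the data were seen, and at day 0 28 to 31 lay within 1.5-fold. The causes were not tested. The median 95% interval of the 31 factors was 1.10-fold either way on each day, and smaller changes were in general not detectable at this spread and depth. That width takes no account of the adjustment over all genes tested. Larger changes could therefore also go without a call. The larger differences of Rtel1, Ddx17 and Brca2 at day 0 had none in the main fit, and whether they were true changes is not known.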
